A study of Homo sapiens with 30 samples.

Results

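KCNN4 and 9 genes of the calcium entry and calcium release machinery were described across 2 human pancreatic cancer cell lines, PANC-1 and MiaPaCa2. The members were KCNN4, ORAI1, ORAI2, ORAI3, STIM1, STIM2, ITPR1, ITPR2, ITPR3 and TRPM8, chosen by an exact match of the gene symbol, and they made up 10 of the 24895 entries of the expression table. The table held RNA-seq levels as FPKM (fragments mapped to a gene, scaled by the length of its transcript and by all mapped fragments of the library) for 30 libraries in 10 groups of 3. Each line was transfected with an siRNA against KCNN4 (siKCNN4), S100A16 (siS100A16), MYEOV (siMYEOV) or DDX60L (siDDX60L), or with a control siRNA (siControl), and the cells of all 10 groups were transfected. The study used RNA-seq to find RNA changes after knockdown of DDX60L, with MYEOV as its positive control. Its text gives no RNA-seq results for the knockdowns of KCNN4 and S100A16. All 4 genes had been selected by the study in relation to patient survival in pancreatic ductal adenocarcinoma. Each line is a single established culture from 1 tumour, and the study's methods describe triplicate experiments done independently. The labels name no separate cultures for the 3 libraries of a group. Each p-value is therefore set against the spread of libraries within groups, which may be technical. That spread was pooled over all groups of the fit, those of the other siRNAs included.

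KCNN4 encodes KCa3.1, a potassium channel of the plasma membrane that opens when intracellular calcium binds the calmodulin attached to it. Potassium leaving through the channel keeps the membrane potential negative, and this sustains the driving force for calcium to enter the cell. In store-operated calcium entry, receptors at the cell surface trigger the production of inositol trisphosphate, the inositol trisphosphate receptors (ITPR1, ITPR2 and ITPR3) release calcium from the endoplasmic reticulum, the membrane sensors STIM1 and STIM2 detect the loss, and they open the ORAI channels in the plasma membrane. TRPM8 is a cation channel, best known as the cold and menthol sensor of sensory neurons, which also carries calcium.

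KCNN4 (ENSG00000104783) lies on the minus strand of GRCh37 at chr19:44270685-44285128, and the pore genes of store-operated entry lie at chr12:122064414-122081124 (ORAI1), chr7:102073553-102097272 (ORAI2) and chr16:30960389-30967782 (ORAI3), all on the plus strand. The sensors STIM1 and STIM2 lie at chr11:3875757-4114440 and chr4:26859223-27027003, both on the plus strand. The release channels lie at chr3:4535029-4889190 (ITPR1), chr12:26488285-26986127 on the minus strand (ITPR2) and chr6:33588142-33664351 (ITPR3), and TRPM8 lies at chr2:234826018-234928166. No member overlaps another in position.

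Promoter windows of 300 bases, from 250 bases before to 50 bases after the start of transcription, were taken from RefSeq on GRCh38.p14, and 8 of the 10 members matched an entry. The windows of 5 members are shown because the knockdown results turn on them: KCNN4 is the silenced gene, TRPM8, ITPR1 and ITPR3 are the members with the largest increases after siKCNN4 in PANC-1, and ORAI2 is the member called in most comparisons. Capitals mark exact matches on either strand to the GC box (GGGCGG), the TATA box (TATAAA), the CCAAT box (CCAAT), the AP-1 motif (TGANTCA), the NFAT core (GGAAAA), the E-box (CACGTG) and the cyclic AMP response element (TGACGTCA). The coordinates are chr19:43780924-43781223 on the minus strand for KCNN4, chr7:102433325-102433624 for ORAI2, chr3:4493098-4493397 for ITPR1, chr6:33621072-33621371 for ITPR3 and chr2:233917123-233917422 for TRPM8, the last 4 on the plus strand. TRPM8 has 6 entries, and the first listed is shown.
KCNN4: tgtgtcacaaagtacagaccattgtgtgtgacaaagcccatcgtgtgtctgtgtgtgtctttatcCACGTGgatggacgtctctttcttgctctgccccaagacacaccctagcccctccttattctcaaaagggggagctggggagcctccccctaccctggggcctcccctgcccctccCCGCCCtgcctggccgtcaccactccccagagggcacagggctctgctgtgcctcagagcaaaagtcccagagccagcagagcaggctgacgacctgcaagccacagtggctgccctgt
ORAI2: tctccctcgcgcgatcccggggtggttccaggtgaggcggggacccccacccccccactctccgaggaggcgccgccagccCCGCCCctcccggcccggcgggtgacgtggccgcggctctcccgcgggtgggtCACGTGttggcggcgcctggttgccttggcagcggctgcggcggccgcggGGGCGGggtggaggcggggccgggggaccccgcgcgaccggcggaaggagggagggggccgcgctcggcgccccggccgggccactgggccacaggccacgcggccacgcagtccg
ITPR1: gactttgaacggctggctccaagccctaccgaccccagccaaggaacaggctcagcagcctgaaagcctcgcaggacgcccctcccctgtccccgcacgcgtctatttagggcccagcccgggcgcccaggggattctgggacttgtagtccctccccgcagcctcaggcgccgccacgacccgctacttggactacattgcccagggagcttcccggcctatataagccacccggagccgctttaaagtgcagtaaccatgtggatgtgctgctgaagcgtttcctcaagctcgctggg
ITPR3: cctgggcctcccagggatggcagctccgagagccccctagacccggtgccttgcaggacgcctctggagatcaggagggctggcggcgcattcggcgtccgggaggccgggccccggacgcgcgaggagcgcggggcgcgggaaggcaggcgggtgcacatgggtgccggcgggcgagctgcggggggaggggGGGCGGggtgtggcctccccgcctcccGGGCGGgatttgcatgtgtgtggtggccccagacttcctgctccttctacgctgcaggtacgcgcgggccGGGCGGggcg
TRPM8: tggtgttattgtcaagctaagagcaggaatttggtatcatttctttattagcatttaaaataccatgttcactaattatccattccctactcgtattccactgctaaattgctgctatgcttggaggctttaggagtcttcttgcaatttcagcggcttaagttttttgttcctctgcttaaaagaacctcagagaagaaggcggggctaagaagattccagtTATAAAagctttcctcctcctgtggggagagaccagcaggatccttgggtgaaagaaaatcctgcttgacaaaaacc
The KCNN4 window held an E-box at position -185 and a GC box at position -69 from the start. ORAI2 had GC boxes at -169 and -66 and an E-box at -116, and ITPR3 had 3 GC boxes at -57, -30 and 40. The TRPM8 window had a TATA box at -27 and no GC box, and none of the 7 motifs was found in the ITPR1 window. Among 35116 promoter windows of the same length, 45.0% held the GC box, 11.5% the TATA box, 34.6% the CCAAT box, 24.1% the NFAT core, 7.71% the AP-1 motif, 7.26% the E-box and 1.85% the cyclic AMP response element. A match is a description of the letters only.

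Summed over all entries, FPKM came to 375091 to 407738 in PANC-1 and to 395879 to 416201 in MiaPaCa2, and 12120 to 12675 genes in PANC-1 and 11570 to 12116 in MiaPaCa2 exceeded 1 FPKM. FPKM keeps no read totals, and a relative depth read from the steps between low values ranged over 0.969 to 1.62 in PANC-1 and 0.631 to 1.19 in MiaPaCa2. The silenced gene was lower in every knockdown, at 47.5% and 36.5% of the siControl mean for KCNN4, 18.1% and 4.95% for S100A16, 41.7% and 21.3% for MYEOV and 44.4% and 11.1% for DDX60L in PANC-1 and MiaPaCa2. Some targets were already low under siControl: MYEOV at 0.803 FPKM in MiaPaCa2, and DDX60L at 1.31 FPKM in PANC-1 and 1.95 FPKM in MiaPaCa2. Keratins 8, 18 and 19 led the 6 epithelial markers in both lines, and the markers EPCAM and CDH1 were near 0 in MiaPaCa2. The summed epithelial level was 1385 to 1506 FPKM under siKCNN4 against 3137 to 3389 FPKM under siControl in PANC-1, and 1026 to 1110 FPKM against 2025 to 2171 FPKM in MiaPaCa2. It was lower still under siMYEOV, at 1008 to 1143 FPKM in PANC-1 and 579 to 653 FPKM in MiaPaCa2, and it was 1283 to 1363 FPKM under siDDX60L in PANC-1. The fibroblast markers in MiaPaCa2 summed to 18.7 to 20.1 FPKM under siS100A16 against 72.0 to 77.7 FPKM under siControl. Markers of other cell types were low or led by a few genes: the 9 leukocyte markers summed to 5.79 to 7.62 FPKM under siKCNN4 against 2.13 to 2.34 FPKM under siControl in MiaPaCa2, and the 8 acinar or islet markers reached at most 0.710 FPKM in any library. The part of these marker shifts in the results below was not tested. Each line is a culture of tumour cells, and bulk RNA does not tell fewer cells expressing a marker from less RNA per cell.

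Under siControl, the 2 lines expressed the machinery at different levels. PANC-1 had lower KCNN4 and higher ORAI2, STIM1, ITPR1, ITPR2 and TRPM8 than MiaPaCa2. KCNN4 was 14.2, 16.5 and 14.6 FPKM in PANC-1 against 60.6, 61.5 and 62.3 FPKM in MiaPaCa2, with no overlap between the lines. On the log2(FPKM + 1) scale used for every fold change, the difference was -1.96 (SE 0.12, limma, adjusted p = 3.21e-13).

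A gene was called when its Benjamini-Hochberg adjusted p over all genes tested was under 0.05 and its absolute log2 fold change was at least 0.5. Whether the libraries of compared groups overlap is a description throughout, because the share of all genes without overlap is not given here. Under siControl, 5 members were called higher and 1 lower in PANC-1 among 10 tested, beside 30.2% and 23.6% of all genes called higher and lower. The 5 include TRPM8, which passed the filter of this fit (a mean of 1 FPKM) through its PANC-1 levels alone, so its call is a description. ORAI2, a pore subunit, was 26.8, 29.5 and 28.6 FPKM in PANC-1 against 7.54, 8.99 and 8.37 FPKM in MiaPaCa2 (fold change on the log2 scale 1.66, adjusted p = 1.14e-09). The calcium sensor STIM1 was 20.3, 21.1 and 21.0 FPKM in PANC-1 against 10.1, 10.1 and 10.5 FPKM in MiaPaCa2 (0.96, adjusted p = 3.00e-11). In both genes the lines did not overlap.

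Among the release channels, ITPR1 was 6.19, 6.31 and 9.65 FPKM in PANC-1 against 1.80, 2.17 and 2.64 FPKM in MiaPaCa2 (log2 fold change 1.37, adjusted p = 5.45e-09). ITPR2 was 4.60, 4.75 and 4.59 FPKM against 2.02, 2.11 and 2.32 FPKM in the same order (0.84, adjusted p = 1.80e-13). TRPM8 was 1.66, 1.47 and 1.64 FPKM in PANC-1 against 0.375, 0.192 and 0.257 FPKM in MiaPaCa2 (1.03, and 2.20 with a pseudocount of 0.1). This TRPM8 difference is a description, because only its PANC-1 levels passed the filter. All 3 genes had their lowest PANC-1 library above their highest MiaPaCa2 library. The differences of ITPR3 (-0.38, adjusted p = 3.25e-08) and ORAI1 (-0.20, adjusted p = 0.0295) stayed under the 0.5 limit, and ORAI3 (-0.01, adjusted p = 0.949) and STIM2 (-0.22, adjusted p = 0.164) did not pass the test.

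FPKM is scaled by transcript length, so levels can be set in order across genes. In PANC-1 under siControl, ITPR3 led at 61.3 ± 1.16 FPKM (SD, n = 3), followed by ORAI2, ORAI1, STIM1 and KCNN4 at group means of 28.3, 23.4, 20.8 and 15.1 FPKM. In MiaPaCa2 under siControl, ITPR3 led again at a mean of 80.3 FPKM, with KCNN4 at 61.5, ORAI1 at 27.0 and STIM1 at 10.2 FPKM next. Neighbours whose libraries overlapped, and whose order is therefore within the spread, were ORAI3 with ITPR1 and STIM2 with ITPR2 in PANC-1, and ORAI3 with ORAI2, ORAI2 with STIM2 and ITPR1 with ITPR2 in MiaPaCa2. TRPM8 was the lowest member in both lines.

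**Figure D1:**
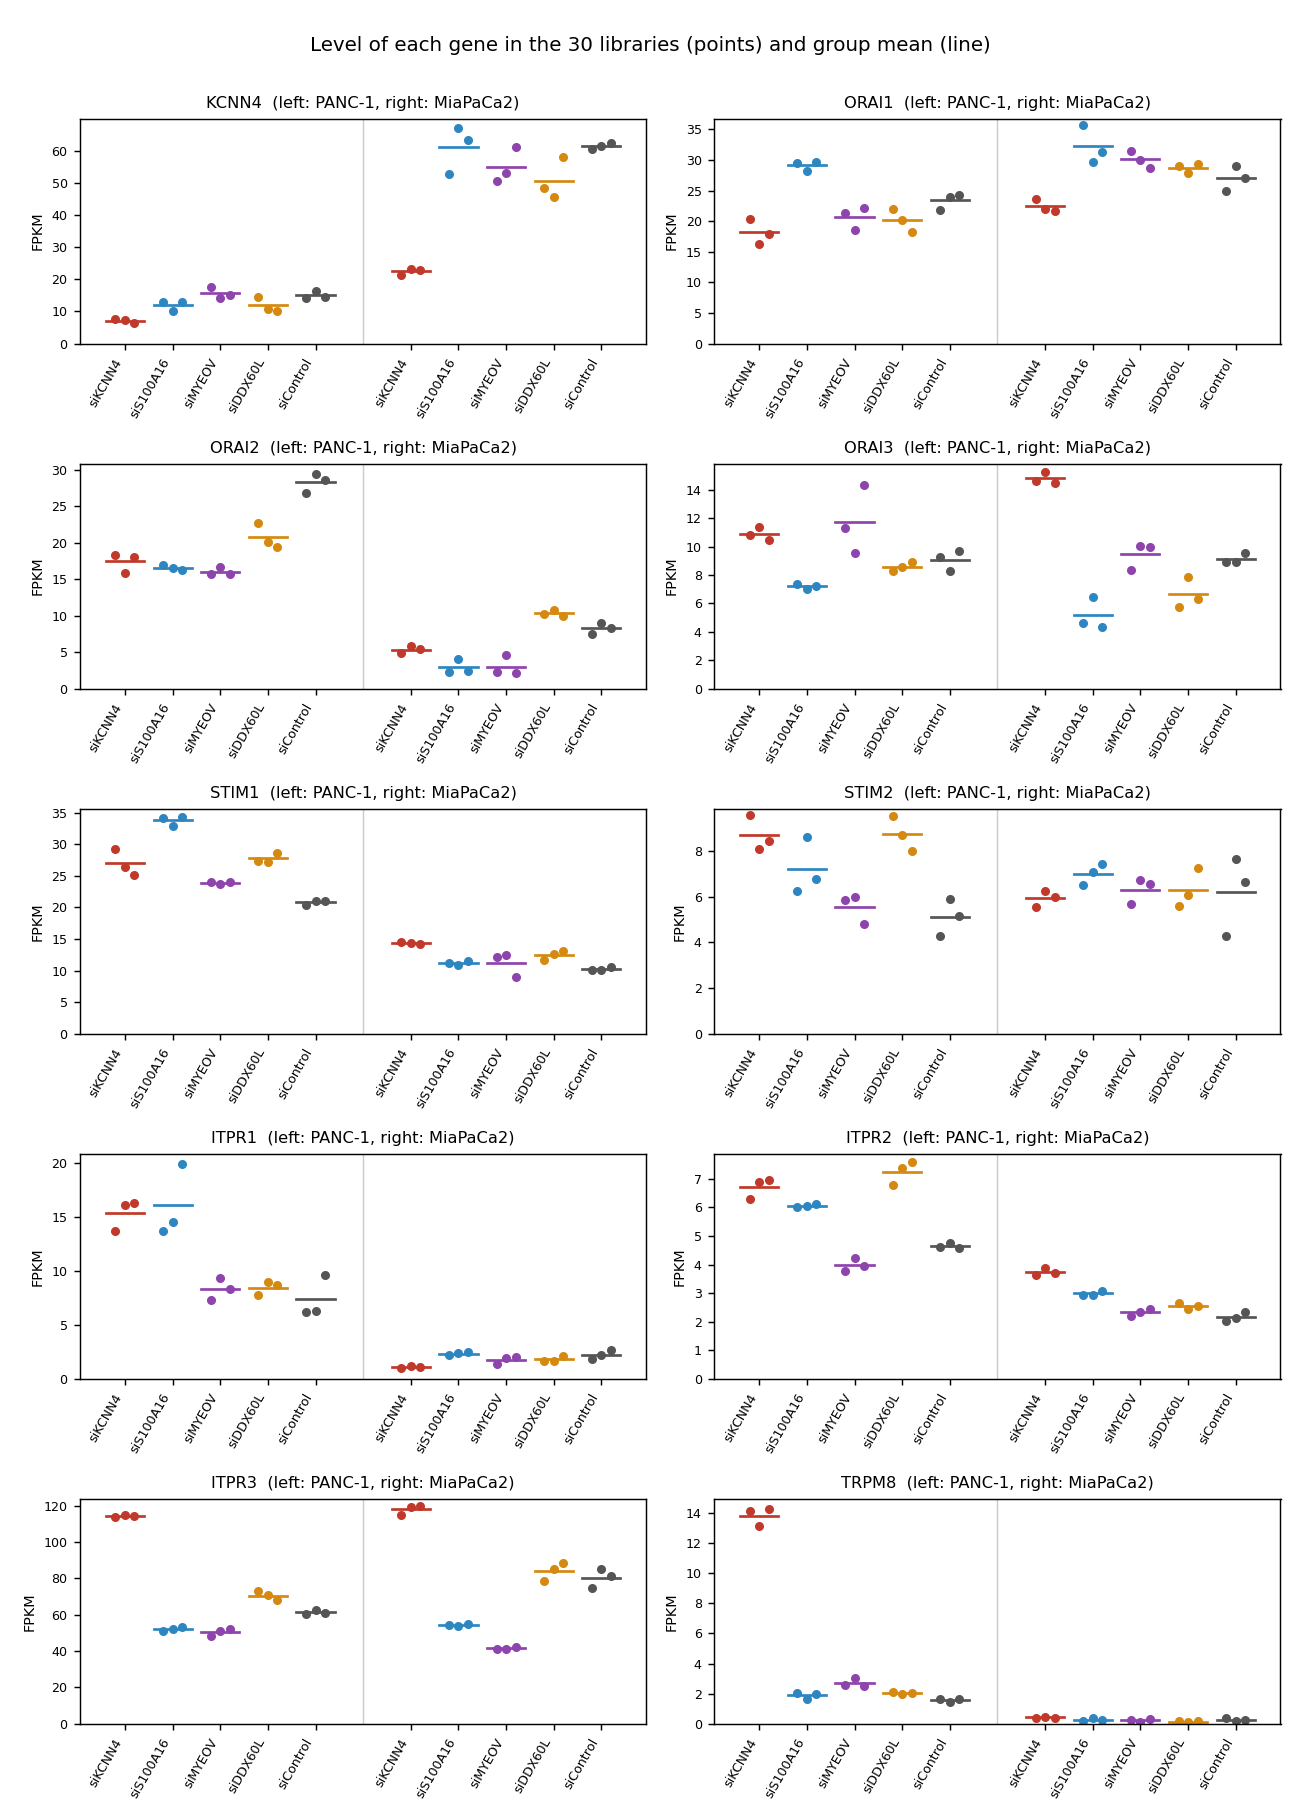
FPKM of each of the 10 members in every library (points; 1 panel per gene, FPKM on the vertical axis), with group means as short lines, for PANC-1 on the left and MiaPaCa2 on the right of each panel and siControl last within a line. KCNN4 is low under siKCNN4 in both lines, and TRPM8 in PANC-1 stands at 13.1 to 14.3 FPKM under siKCNN4 against 1.47 to 1.66 FPKM under siControl.

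KCNN4 itself was downregulated by its siRNA in both lines. In PANC-1 its level was 7.78, 7.27 and 6.39 FPKM under siKCNN4 against 14.2, 16.5 and 14.6 FPKM under siControl (log2 fold change -0.98, SE 0.13, adjusted p = 3.06e-05). In MiaPaCa2 it was 21.3, 23.0 and 23.0 FPKM under siKCNN4 against 60.6, 61.5 and 62.3 FPKM under siControl (-1.41, SE 0.0995, adjusted p = 1.33e-07). The groups did not overlap in either line, and the 3 silenced MiaPaCa2 libraries still held more KCNN4 than any PANC-1 library. The difference between the 2 effects, PANC-1 minus MiaPaCa2, was 0.44 (adjusted p = 0.0481), under the 0.5 limit. It came to 0.56 (adjusted p = 0.0129) when each library was rescaled by the median of its gene ratios (median of ratios scaling), and to 0.50 (adjusted p = 0.0331) without PANC-1 siKCNN4 replicate 3. With 1 library left out the adjusted p ran up to 0.11, without PANC-1 siKCNN4 replicate 1.

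After siKCNN4, 4 members besides KCNN4 were upregulated and 1 downregulated in PANC-1, and 3 were upregulated and 2 downregulated in MiaPaCa2. With KCNN4 counted, that is 4 higher and 2 lower of 10 tested in PANC-1, beside 13.8% higher and 12.9% lower of all genes. In MiaPaCa2 it is 3 higher and 3 lower of 9 tested, beside 16.0% higher and 7.23% lower of all genes. TRPM8 was not tested in MiaPaCa2, where its mean was under the filter of 1 FPKM. In MiaPaCa2 the split of all calls moved with the scaling: 1900 higher and 859 lower as deposited became 1172 higher and 1405 lower after a median of ratios scaling, which moved the median of all genes by -0.13.

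The member with the largest effect of siKCNN4 was TRPM8 in PANC-1. Its level was 14.1, 13.1 and 14.3 FPKM under siKCNN4 against 1.66, 1.47 and 1.64 FPKM under siControl, an 8.68-fold ratio of the group means. The log2 fold change was 2.52 (SE 0.0738, adjusted p = 6.01e-11), and it stayed between 2.48 and 3.04 in every alternative that tested it, the filter at 5 FPKM having removed it. In MiaPaCa2 TRPM8 was 0.408, 0.446 and 0.403 FPKM under siKCNN4 against 0.375, 0.192 and 0.257 FPKM under siControl, where the 3 siKCNN4 libraries stood above the 3 siControl libraries at levels below 0.5 FPKM. Tested without the filter, that difference was 0.16 (adjusted p = 0.115). In the fit over all 30 libraries the difference between the lines was 2.36. TRPM8 passed the filter of that fit through its PANC-1 levels alone, so the difference is given as a description.

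ITPR3, the most abundant release channel in both lines, was upregulated in both. It was 114, 115 and 114 FPKM under siKCNN4 against 60.5, 62.7 and 60.8 FPKM under siControl in PANC-1 (log2 fold change 0.89, SE 0.0399, adjusted p = 1.94e-09). The MiaPaCa2 levels were 115, 119 and 120 FPKM under siKCNN4 against 74.8, 84.9 and 81.3 FPKM under siControl (0.55, SE 0.0504, adjusted p = 1.44e-06). The silenced libraries lay above the siControl libraries in both lines, and the difference between the lines was 0.34 (adjusted p = 0.000158), under the 0.5 limit. The MiaPaCa2 call was lost at a fold change of 0.40 under the median of ratios scaling, and without siControl replicate 1, where it came to just under 0.5.

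ITPR1 moved in opposite directions in the 2 lines. It was 13.7, 16.1 and 16.3 FPKM under siKCNN4 against 6.19, 6.31 and 9.65 FPKM under siControl in PANC-1, an upregulation of 0.98 (SE 0.16, adjusted p = 0.000168). In MiaPaCa2 it was 0.950, 1.13 and 1.07 FPKM under siKCNN4 against 1.80, 2.17 and 2.64 FPKM under siControl, a downregulation of -0.64 (SE 0.112, adjusted p = 0.000362, and -0.99 with a pseudocount of 0.1). The groups did not overlap in either line, and the difference between the effects was 1.62 (SE 0.201, adjusted p = 1.08e-06). The third release channel, ITPR2, was 6.30, 6.89 and 6.96 FPKM under siKCNN4 against 4.60, 4.75 and 4.59 FPKM under siControl in PANC-1 (0.45, adjusted p = 1.82e-05, under the 0.5 limit).
In MiaPaCa2 ITPR2 was 3.62, 3.88 and 3.71 FPKM under siKCNN4 against 2.02, 2.11 and 2.32 FPKM under siControl (0.59, SE 0.0555, adjusted p = 1.84e-06). All silenced libraries lay above the siControl libraries, and the MiaPaCa2 call was lost at 0.47 under the median of ratios scaling.

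Of the ORAI pore genes, ORAI2 was downregulated by siKCNN4 and ORAI3 upregulated in MiaPaCa2, while ORAI1 was not called in either line. ORAI2 was 18.4, 15.8 and 18.1 FPKM under siKCNN4 against 26.8, 29.5 and 28.6 FPKM under siControl in PANC-1 (log2 fold change -0.67, SE 0.0668, adjusted p = 2.45e-06). The MiaPaCa2 levels were 4.82, 5.81 and 5.44 FPKM under siKCNN4 against 7.54, 8.99 and 8.37 FPKM under siControl (-0.55, SE 0.203, adjusted p = 0.0357). The groups did not overlap in either line. The MiaPaCa2 call did not hold without siKCNN4 replicate 1 (adjusted p = 0.103), siKCNN4 replicate 2 (0.051), siKCNN4 replicate 3 (0.069), siControl replicate 2 (0.099) or siControl replicate 3 (0.077), nor with a pseudocount of 0.1 (0.0563) or without the filter (0.0612).

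ORAI3, the channel subunit found in mammals alone among the 3, was 10.8, 11.4 and 10.4 FPKM under siKCNN4 against 9.25, 8.27 and 9.67 FPKM under siControl in PANC-1 (log2 fold change 0.24, adjusted p = 0.0678). MiaPaCa2 cells had 14.6, 15.3 and 14.5 FPKM under siKCNN4 against 8.90, 8.89 and 9.55 FPKM under siControl (0.64, SE 0.124, adjusted p = 0.000740). The silenced libraries lay above the siControl libraries in both lines, and the difference between the lines did not pass the test (-0.41, adjusted p = 0.0624). ORAI1, the main pore subunit of store-operated entry, was 20.3, 16.3 and 18.0 FPKM under siKCNN4 against 21.9, 24.0 and 24.3 FPKM under siControl in PANC-1 (-0.35, adjusted p = 0.00426).
In MiaPaCa2 ORAI1 was 23.7, 22.0 and 21.7 FPKM under siKCNN4 against 25.0, 29.0 and 27.1 FPKM under siControl (-0.26, adjusted p = 0.00805). Every silenced library was below every siControl library, but both fold changes were under the 0.5 limit.

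Of the sensors, STIM2 was upregulated in PANC-1, and STIM1 was not called in either line. STIM2 was 9.59, 8.09 and 8.43 FPKM under siKCNN4 against 4.27, 5.90 and 5.14 FPKM under siControl in PANC-1 (log2 fold change 0.67, SE 0.125, adjusted p = 0.000471). In MiaPaCa2 it was 5.54, 6.27 and 5.98 FPKM under siKCNN4 against 4.29, 7.67 and 6.66 FPKM under siControl (-0.03, adjusted p = 0.893, 95% interval -0.35 to 0.29). The PANC-1 groups did not overlap and the MiaPaCa2 groups did, and the difference between the effects was 0.70 (SE 0.2, adjusted p = 0.00806). STIM1 was 29.3, 26.4 and 25.2 FPKM under siKCNN4 against 20.3, 21.1 and 21.0 FPKM under siControl in PANC-1 (0.36, adjusted p = 4.96e-05).
In MiaPaCa2 STIM1 was 14.5, 14.4 and 14.2 FPKM under siKCNN4 against 10.1, 10.1 and 10.5 FPKM under siControl (0.45, adjusted p = 0.00105). STIM1 was higher in every silenced library of both lines, with fold changes under the 0.5 limit and a difference between the lines of -0.09 (adjusted p = 0.52).

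**Figure D2:**
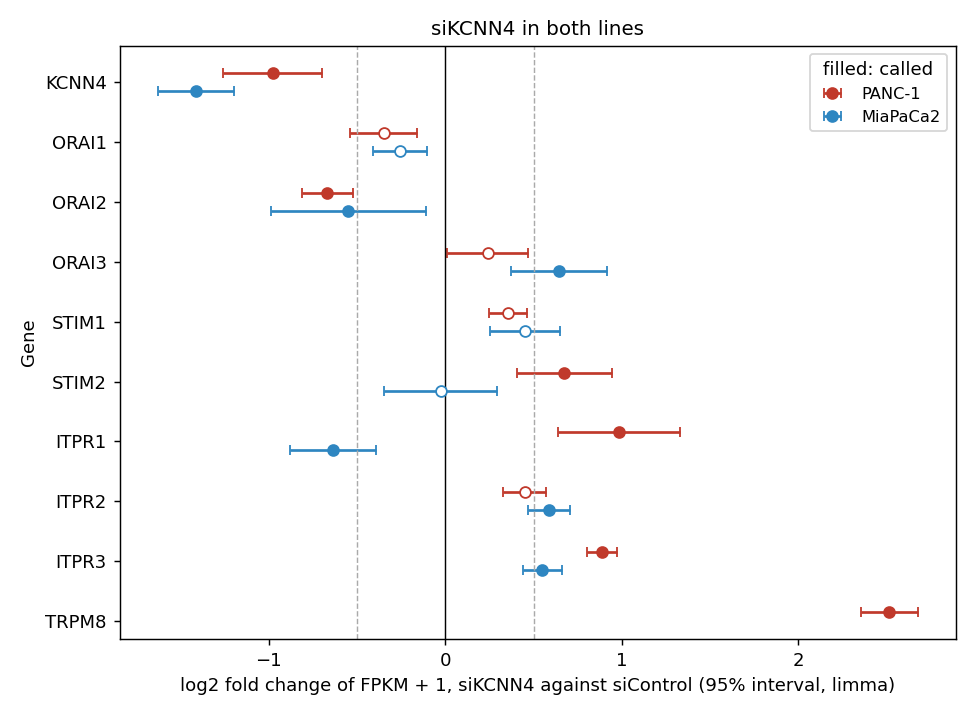
Log2 fold change of each member under siKCNN4 against siControl on the log2(FPKM + 1) scale (horizontal axis) with its 95% interval, in PANC-1 and MiaPaCa2, with filled points for called genes and dashed lines at -0.5 and 0.5. TRPM8 in PANC-1 stands at 2.52, ITPR1 lies on opposite sides of 0 in the 2 lines, and KCNN4 and ORAI2 are below 0 in both.

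The wider calcium toolkit was read from 9 lists of genes, of which 106 genes were tested in PANC-1 and 97 in MiaPaCa2. After siKCNN4, 18 were called higher and 16 lower in PANC-1, and 14 higher and 3 lower in MiaPaCa2. Of all genes tested, 13.8% were called higher and 12.9% lower in PANC-1, and 16.0% and 7.23% in MiaPaCa2, and the counts for each list below are to be read against these shares. The median of ratios scaling left 18 and 16 in PANC-1 and turned the MiaPaCa2 counts to 7 higher and 12 lower. The largest called decrease among the pump and store genes of both lines was that of ATP2A2, which encodes the SERCA2 pump that refills the endoplasmic reticulum. It averaged 33.1 ± 0.942 FPKM under siKCNN4 and 86.4 ± 1.11 FPKM under siControl in PANC-1 (SD, n = 3 each; log2 fold change -1.36), and 35.0 ± 3.60 FPKM and 101 ± 10.6 FPKM in the same order in MiaPaCa2 (-1.50). The ATP2A2 groups did not overlap in either line.

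Of the 13 pump, exchanger and store release genes tested in PANC-1, 5 were called higher and 2 lower, and of the 11 in MiaPaCa2 4 and 1. In PANC-1, CANX (calnexin, a chaperone of the endoplasmic reticulum) rose by 1.02 and RYR1, the skeletal muscle ryanodine receptor, by 0.94, and TPCN1, a two-pore channel of endosomes, changed by -0.83. In MiaPaCa2, ATP2B4 (a plasma membrane calcium pump) rose by 0.80, CALR (calreticulin, a calcium buffer of the store) by 0.72 and CANX by 0.60. Among the TRP channel genes, 5 of 10 were called higher and none lower in PANC-1, led by MCOLN1 (1.20), the sensory channel gene TRPA1 (1.09), TRPV2 (0.95) and MCOLN3 (0.84). In MiaPaCa2 3 of 9 were higher and none lower, namely MCOLN3 (1.35), TRPV1 (0.53) and TRPC1 (0.52), and under the median of ratios scaling 1 was higher and 1 lower. MCOLN1 and MCOLN3 encode channels of lysosomes and endosomes. The median log2 fold change of the TRP list was 0.46 in PANC-1 and 0.29 in MiaPaCa2, beside 0.02 and 0.09 for all genes tested.

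Of 11 regulators of store-operated entry, 3 were called higher and 2 lower in PANC-1 and none in MiaPaCa2, where 6 had an unadjusted p under 0.05 in limma. The share of all genes with such a p is not given here, so the 6 are not read as a result about the list. In PANC-1, CRACR2B, which encodes an ORAI-binding regulator, averaged 11.2 FPKM under siKCNN4 against 36.1 FPKM under siControl (log2 fold change -1.60). CAV1 (caveolin, a membrane scaffold) changed by -1.07, ASPH, whose locus encodes the store protein junctate, by 0.70 and HOMER2, a scaffold that binds the release channels, by 0.55. Among other calcium entry channels, 2 were called higher and 2 lower of 11 in PANC-1: TMEM63A (0.92) and TMEM63B (0.62), mechanically gated channels, rose, and the voltage-gated channel genes CACNA1D (-1.12) and CACNA1H (-0.55) fell. In MiaPaCa2 1 of 7 was called, TMEM63A (1.10).

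In phospholipase C and inositol phosphate metabolism, 2 were called higher and 2 lower of 14 in PANC-1: the kinase genes ITPKB (1.38) and ITPKA (-0.82), the phosphatase gene INPP1 (0.71) and the phospholipase gene PLCD1 (-0.60). In MiaPaCa2, 2 of 12 were higher, INPP1 (1.15) and INPP5A (0.58), both phosphatase genes. In the calmodulin, calcineurin and NFAT list, 1 of 20 was lower in PANC-1, NFATC3 (-0.52), a transcription factor activated by calcineurin. In MiaPaCa2, 2 of 19 were higher, CABIN1 (0.70), a calcineurin inhibitor, and CAMK2D (0.69), a calmodulin-dependent kinase. For mitochondrial calcium uptake, 1 of 10 was lower in each line, LETM1, a cation exchanger of the inner membrane, at -0.99 in PANC-1 and -0.52 in MiaPaCa2.

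Of 8 genes known to regulate the KCNN4 channel, 2 were lower in PANC-1, PIK3C2B (-0.90), a lipid kinase that activates it, and MTMR6 (-0.56), a phosphatase that inhibits it. None was called in MiaPaCa2, where 4 had an unadjusted p under 0.05 in limma, again without the share of all genes beside it. Of the potassium channel list, 1 was higher and 4 lower of 12 in PANC-1, the lower ones including the channel genes KCNH2 (-1.10) and KCNK15 (-0.54) and the beta subunit KCNAB2 (-0.66). In MiaPaCa2, 2 were higher and 1 lower of 13, and among them KCNC4 (0.58) rose and LRRC8A (-0.55), a volume-regulated anion channel subunit, fell.

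The other 3 knockdowns left KCNN4 uncalled in both lines, with fold changes of -0.33 to 0.05 in PANC-1 and -0.28 to -0.02 in MiaPaCa2. After siDDX60L the adjusted p of KCNN4 in limma was 0.0489 in PANC-1 and 0.0328 in MiaPaCa2, with both fold changes under the 0.5 limit. With 1 library left out these ran up to 0.182 and 0.131. Over all 8 comparisons KCNN4 had an unadjusted p under 0.05 in 5, of which the siKCNN4 calls are 2. The share of all genes with such a p is not given here, so the 5 are not read as a result about KCNN4. Each line's 4 knockdowns were set against the same 3 siControl libraries, so they share that reference. After siS100A16, 2 members were called higher and 1 lower of 10 in PANC-1, beside 16.5% and 8.94% of all genes. In MiaPaCa2 none was higher and 3 were lower of 9, beside 12.4% and 9.63% (1475 and 1144 of all genes, or 1253 and 1355 under the median of ratios scaling). In PANC-1 the split of all calls, 2060 higher and 1119 lower, became 1389 and 1582 under the median of ratios scaling.

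After siS100A16 in PANC-1, STIM1 was 34.1, 32.9 and 34.4 FPKM against 20.3, 21.1 and 21.0 FPKM under siControl (log2 fold change 0.67, adjusted p = 1.83e-07). ITPR1 was 13.7, 14.6 and 19.9 FPKM under siS100A16 against 6.19, 6.31 and 9.65 FPKM under siControl (1.03, adjusted p = 0.000119). ORAI2 was 16.9, 16.5 and 16.3 FPKM under siS100A16 against 26.8, 29.5 and 28.6 FPKM under siControl (-0.73, adjusted p = 1.14e-06). The groups of these 3 genes did not overlap, which is a description. The effects of siS100A16 differed between the lines for STIM1 (0.56, adjusted p = 0.000233) and ITPR1 (0.97, adjusted p = 0.000655), and the STIM1 difference fell to 0.47 under the median of ratios scaling.

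After siS100A16 in MiaPaCa2, ORAI2 was 2.30, 4.10 and 2.46 FPKM against 7.54, 8.99 and 8.37 FPKM under siControl (log2 fold change -1.26, adjusted p = 0.000181). ORAI3 was 4.65, 6.48 and 4.33 FPKM under siS100A16 against 8.90, 8.89 and 9.55 FPKM under siControl (-0.73, adjusted p = 0.000281). ITPR3 was 54.4, 53.6 and 54.8 FPKM under siS100A16 against 74.8, 84.9 and 81.3 FPKM under siControl (-0.56, adjusted p = 1.22e-06). All 3 genes were lower in every siS100A16 library. ITPR3 was also below siControl in PANC-1, at 51.0 to 53.3 FPKM against 60.5 to 62.7 FPKM (-0.23, adjusted p = 0.000291, under the 0.5 limit).

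After siMYEOV, 1 member was called higher and 1 lower of 10 in PANC-1, beside 14.3% and 15.1% of all genes, and none higher and 2 lower of 9 in MiaPaCa2, beside 16.3% and 10.4%. In MiaPaCa2 the split of all calls, 1933 higher and 1234 lower, became 1387 and 1546 under the median of ratios scaling. ORAI2 was 15.7, 16.6 and 15.7 FPKM under siMYEOV against 26.8, 29.5 and 28.6 FPKM under siControl in PANC-1 (log2 fold change -0.78, adjusted p = 4.85e-07). MiaPaCa2 cells had 2.22, 4.62 and 2.18 FPKM under siMYEOV against 7.54, 8.99 and 8.37 FPKM under siControl (-1.27, adjusted p = 0.000150). The groups did not overlap, and in MiaPaCa2 siMYEOV replicate 2 stood above the other 2 silenced libraries.

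ITPR3 fell after siMYEOV in MiaPaCa2, to 40.9, 41.2 and 42.0 FPKM against 74.8, 84.9 and 81.3 FPKM under siControl (log2 fold change -0.94, adjusted p = 8.43e-09). The PANC-1 levels were 48.1, 51.2 and 52.2 FPKM under siMYEOV against 60.5, 62.7 and 60.8 FPKM under siControl (-0.28, adjusted p = 5.78e-05, under the 0.5 limit). The difference between the effects was 0.66 (adjusted p = 1.49e-08). TRPM8 was 2.60, 3.06 and 2.48 FPKM under siMYEOV against 1.66, 1.47 and 1.64 FPKM under siControl in PANC-1 (0.52, adjusted p = 5.22e-05), without overlap. Its fold change came to 0.45 without siMYEOV replicate 2 and to 0.48 without siControl replicate 2, under the limit in both. The difference between the lines for TRPM8 was 0.57, and 0.94 with a pseudocount of 0.1, again a description because only its PANC-1 levels passed the filter.

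After siDDX60L, 2 members were called higher and none lower of 10 in PANC-1, beside 10.2% and 7.34% of all genes, where the split of 1276 higher and 919 lower became 926 and 1209 under the median of ratios scaling. In MiaPaCa2 none of 9 was called, beside 8.77% higher and 7.28% lower of all genes (1042 and 865, or 836 and 1034 under that scaling). Under the 0.5 limit, 4 of the 9 had an unadjusted p under 0.05 in limma: ORAI3 (-0.41), KCNN4 (-0.28), STIM1 (0.26) and ITPR2 (0.17). The share of all genes with such a p is not given here, so that count is not read as a result about the members. In PANC-1 STIM2 was 9.56, 8.69 and 7.99 FPKM under siDDX60L against 4.27, 5.90 and 5.14 FPKM under siControl (0.68, adjusted p = 0.000589). ITPR2 was 6.79, 7.38 and 7.60 FPKM under siDDX60L against 4.60, 4.75 and 4.59 FPKM under siControl (0.55, adjusted p = 5.48e-06), and this call was lost at 0.48 under the median of ratios scaling. Neither gene had overlapping groups.

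ORAI2 was the member called most often. It was called lower in 6 of the 8 comparisons with siControl and higher in none, and the exceptions were the siDDX60L comparisons. The share of all genes called lower that often is not given here, and the comparisons of a line share their siControl libraries. The ORAI2 call after siKCNN4 in MiaPaCa2 was lost in several alternatives, as given above. Under siDDX60L it was 22.7, 20.0 and 19.4 FPKM against 26.8, 29.5 and 28.6 FPKM under siControl in PANC-1 (log2 fold change -0.43, adjusted p = 0.000163, under the 0.5 limit, but -0.51 and called under the median of ratios scaling). The MiaPaCa2 levels were 10.3, 10.7 and 9.92 FPKM under siDDX60L against 7.54, 8.99 and 8.37 FPKM under siControl (0.28, adjusted p = 0.276). The siDDX60L libraries lay below siControl in PANC-1 and above it in MiaPaCa2, and the effects differed by -0.72 (SE 0.221, adjusted p = 0.0178). ORAI1 was called in 0 of the 8 comparisons. It had an unadjusted p under 0.05 in 5 of them in limma, again without the share of all genes beside it. Its level stayed between 16.3 and 29.6 FPKM in PANC-1 and between 21.7 and 35.8 FPKM in MiaPaCa2 over all libraries.

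Tests of the difference between the lines called 3 of 10 members after siKCNN4 (17.3% of all genes), 2 after siS100A16 (13.5%), 2 after siMYEOV (17.8%) and 2 after siDDX60L (11.3%). The siKCNN4 calls were TRPM8, ITPR1 and STIM2, the siS100A16 calls STIM1 and ITPR1, the siMYEOV calls ITPR3 and TRPM8, and the siDDX60L calls ORAI2 and STIM2. The 2 TRPM8 calls rest on a gene that passed the filter through PANC-1 alone. The median of ratios scaling turned the split of all such calls to 1103 higher and 1074 lower after siKCNN4 (667 and 1510 as deposited), 789 and 859 after siS100A16 (1103 and 601), and 978 and 1219 after siMYEOV (728 and 1514). The siDDX60L difference of STIM2 (0.64, adjusted p = 0.0195) was lost when the fit held only the groups compared (adjusted p = 0.0798), and without PANC-1 siControl replicate 1, MiaPaCa2 siDDX60L replicate 1 or MiaPaCa2 siControl replicate 2 or 3 (adjusted p up to 0.0682).

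**Figure D3:**
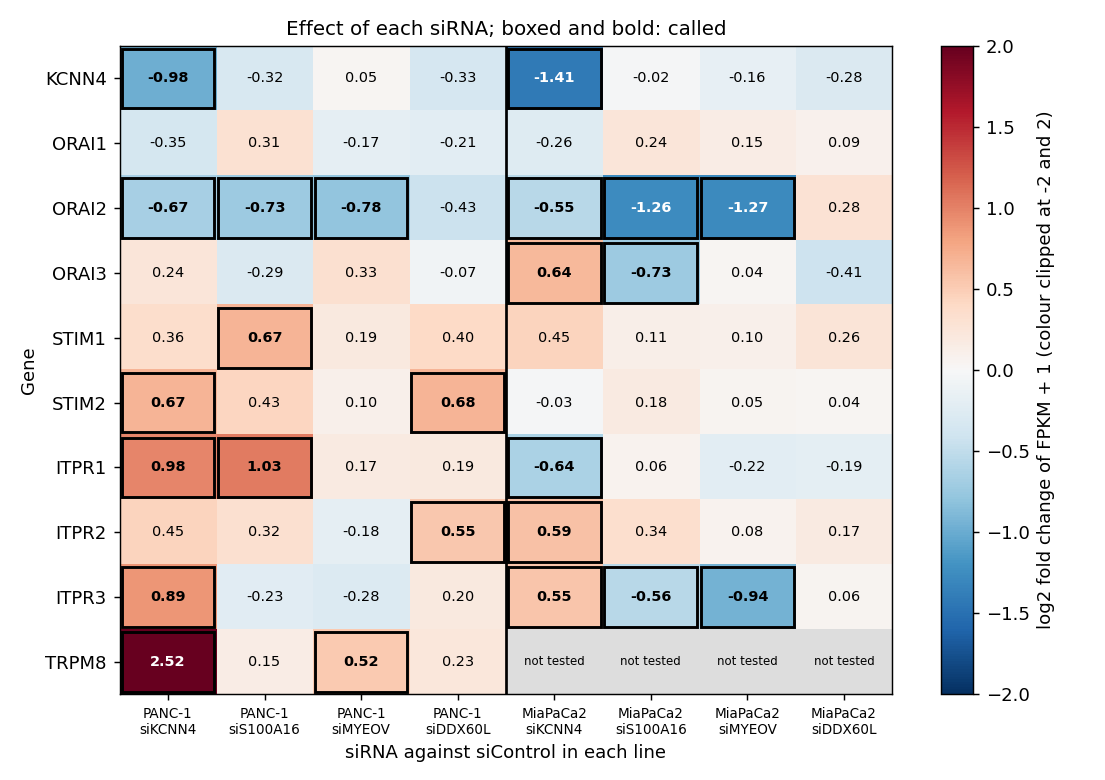
Log2 fold change against siControl of the same line on the log2(FPKM + 1) scale (colour and printed value) for the 10 members (rows) under each siRNA (columns, PANC-1 and MiaPaCa2), with called values boxed and TRPM8 marked as not tested in MiaPaCa2. ORAI2 is boxed below 0 in 6 of its 8 cells, ORAI1 in none, and ITPR3 is boxed above 0 under siKCNN4 in both lines and below 0 under siS100A16 and siMYEOV in MiaPaCa2.

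The make-up of each gene family was read as the share of each paralog in the summed FPKM of the family. Under siControl ORAI2 held 46.5 ± 1.05% of the ORAI sum in PANC-1 (SD, n = 3) and 18.7 ± 0.484% in MiaPaCa2, where ORAI1 held 60.8 ± 0.951%. Under siKCNN4 the ORAI3 share was 23.5 ± 2.31% against 14.95 ± 1.37% under siControl in PANC-1, and 34.8 ± 0.822% against 20.6 ± 1.40% in MiaPaCa2, without overlap in either line. The summed ORAI level was 46.5 ± 3.00 FPKM under siKCNN4 against 60.7 ± 2.46 FPKM under siControl in PANC-1, and 42.6 ± 0.871 FPKM against 44.4 ± 2.81 FPKM in MiaPaCa2, where the libraries overlapped. Under siS100A16, the ORAI1 share was 55.0 ± 0.593% against 38.5 ± 0.623% under siControl in PANC-1.

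ITPR3 held 83.6 ± 2.25% of the ITPR sum under siControl in PANC-1 and 94.9 ± 0.536% in MiaPaCa2. The summed ITPR level under siKCNN4 was 136 ± 2.10 FPKM against 73.4 ± 1.91 FPKM under siControl in PANC-1, and 123 ± 2.79 FPKM against 84.7 ± 5.46 FPKM in MiaPaCa2. The ITPR3 share under siKCNN4 was 83.8 ± 1.09% in PANC-1, within the siControl spread, so the sum grew there without a shift of that share. Under siS100A16 in PANC-1 the ITPR1 share was 21.5 ± 3.12% against 10.04 ± 2.44% under siControl, at a summed level of 74.2 ± 4.52 FPKM against 73.4 ± 1.91 FPKM. STIM1 held 75.6 ± 0.831% of the STIM sum under siKCNN4 against 80.4 ± 2.27% under siControl in PANC-1, and 70.8 ± 1.37% against 62.8 ± 6.75% in MiaPaCa2, with overlap in MiaPaCa2. These shares are descriptions with no test.

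**Figure D4:**
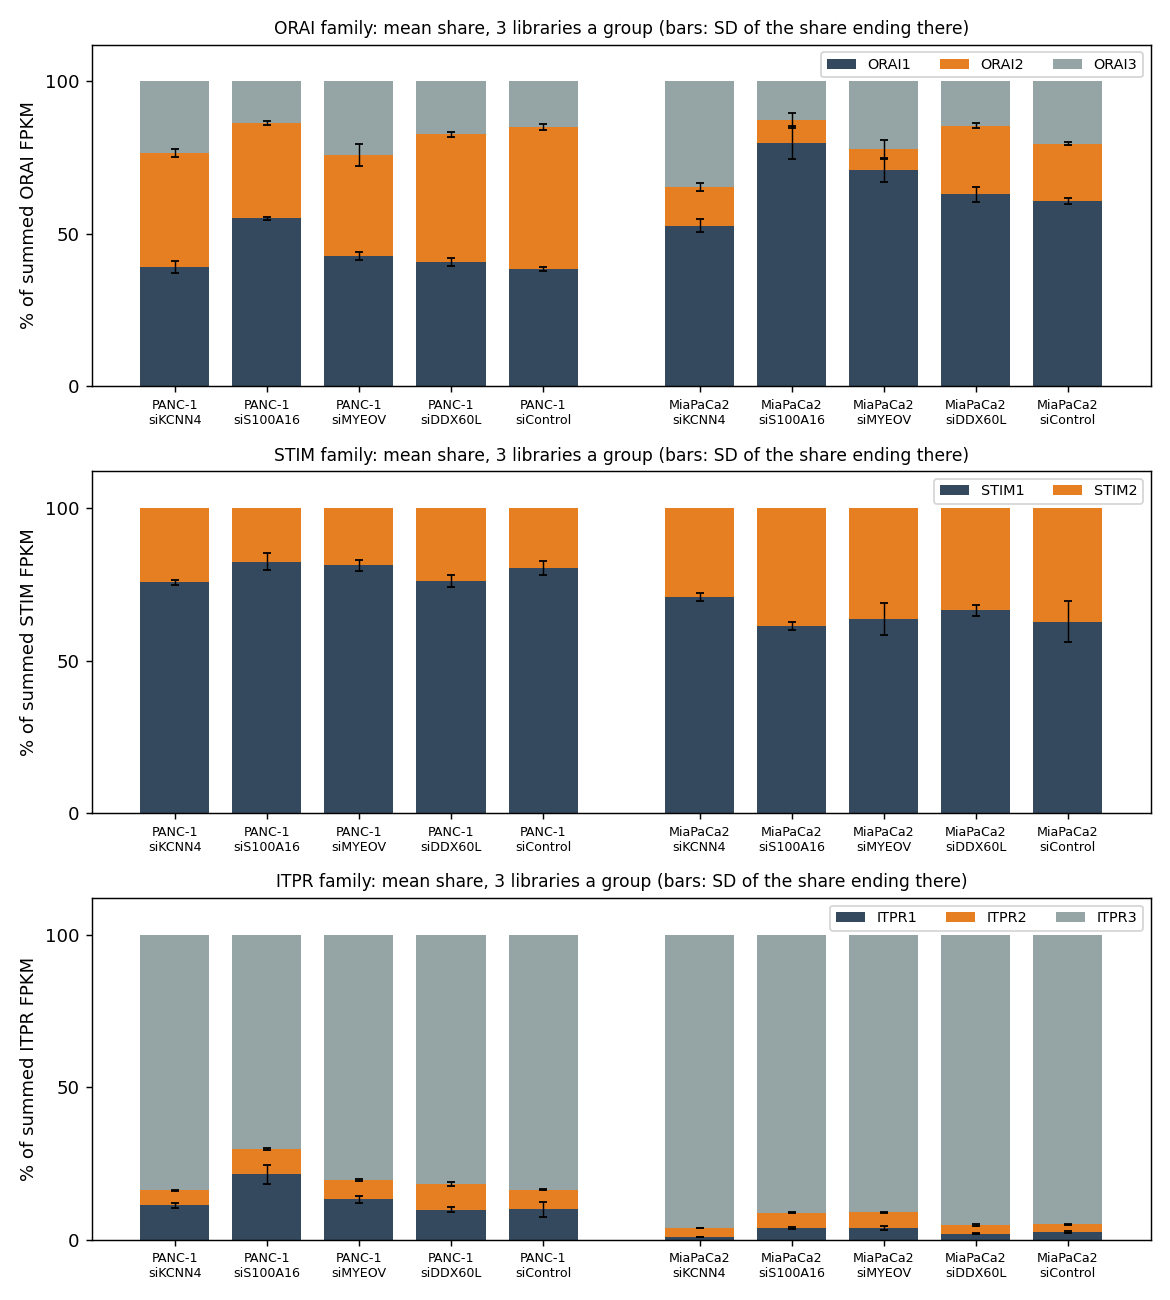
Mean share of each paralog in the summed FPKM of the ORAI, STIM and ITPR families (percent, stacked bars, error bars SD over 3 libraries on all but the top segment) under each siRNA in PANC-1 and MiaPaCa2. ORAI3 takes a larger share under siKCNN4 than under siControl in both lines, and ITPR3 holds 70.3% of the ITPR sum under siS100A16 in PANC-1 against 83.6% under siControl.

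Across the 10 groups KCNN4 was ordered by line first. Every MiaPaCa2 group exceeded every PANC-1 group, and siKCNN4 was the lowest group of each line without overlap with the next. The siControl, siS100A16, siMYEOV and siDDX60L groups of MiaPaCa2 overlapped with their neighbours at means of 61.5, 61.0, 54.9 and 50.5 FPKM. The siDDX60L libraries, at 45.5 to 57.9 FPKM, nonetheless all lay below the siControl libraries, at 60.6 to 62.3 FPKM. After the mean of each line was subtracted, the genes whose log2(FPKM + 1) was most like that of KCNN4 over the 30 libraries, among 11084 genes, were KRI1 (Pearson r 0.93), SMARCD2 (0.92), NIPA2 (0.91), SPIN1 (0.91) and ANP32A (0.90). The points share the siKCNN4 libraries, in which KCNN4 was lowest. NIPA2, a magnesium transporter gene, averaged 11.6 ± 1.12 FPKM under siKCNN4 and 31.6 ± 3.08 FPKM under siControl in PANC-1, and 5.04 ± 0.438 FPKM and 27.7 ± 2.16 FPKM in the same order in MiaPaCa2.

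The other calcium and potassium genes with the largest called effects in the remaining comparisons were, in PANC-1, RYR1 (1.36), CAMK1 (1.33), a calmodulin-dependent kinase, and HOMER2 (0.91) after siS100A16. After siMYEOV in PANC-1 they were CACNA1G (-2.19), a T-type calcium channel at 1.75 FPKM under siMYEOV against 11.6 FPKM under siControl, KCNH2 (-1.73) and ATP2A3 (-1.41), a SERCA pump. After siDDX60L in PANC-1 they were NFAT5 (-1.20), PKD2 (0.99), a TRP-family channel of cilia and the endoplasmic reticulum, and RCAN1 (-0.83), a calcineurin regulator. In MiaPaCa2 they were PPP3R1 (-1.16), the regulatory subunit of calcineurin, KCNAB2 (-1.16) and CAMK2G (-1.07) after siS100A16. After siMYEOV they were LRRC8A (-1.31), INPP5A (1.30) and MCOLN2 (-1.18), and after siDDX60L NFAT5 (-0.997), INPP5A (0.96) and RCAN1 (-0.95).

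Sequences of 2 siRNAs were read from the study's oligonucleotide table, those against MYEOV and DDX60L that the study names as effective, and they are shown because a short match of the guide can also touch members. The sense strands are given, with capitals for the letters that a transcript must hold to pair with the seed of the antisense strand.
MYEOV siRNA: ggaggacacgcAAGTTCAg
DDX60L siRNA: gagcttgttctCGAGTCAt
The MYEOV sense strand was found whole in 4 of 12 MYEOV transcripts and that of DDX60L in 4 of 16 DDX60L transcripts. The seed match of the MYEOV siRNA occurred in 27.6% of 12067 transcripts, 1 per gene, and in 3 of the 10 members, STIM2, ITPR2 and ITPR3. The DDX60L seed match occurred in 6.51% of transcripts and in 1 member, TRPM8. A match is a description of the letters and was not tested as a cause.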

How the data were processed

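RNA was sequenced from 30 siRNA-transfected libraries of PANC-1 and MiaPaCa2, and the expression table deposited by the authors held FPKM for 24895 entries. According to the submitters' processing notes, reads were aligned with TopHat2 2.0.12 to GRCh37. The study's methods name an Ensembl annotation of GRCh37 and a strand-specific TruSeq kit, whereas the labels name another TruSeq kit. The program that computed FPKM and the strand setting of the counting were not given in the sources used here, and without strand, reads of overlapping antisense genes cannot be told apart. Columns were matched to samples by name, 0 columns were left unmapped, and 27 symbols that had been turned into dates were restored. Of the entries 19974 carried an Ensembl ID.

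Levels were tested on log2(FPKM + 1) with limma 3.58.1 in R 4.3.3 (moderated variances with a mean trend, two-sided), on genes whose mean in the fitted libraries reached 1 FPKM. Each line was fitted on its 15 libraries (12513 genes in PANC-1, 11875 in MiaPaCa2), and the differences between lines on all 30 (12580 genes). The pseudocount understates the change of low genes. Adjustment followed Benjamini and Hochberg across every gene of the fit. Calls needed an adjusted p under 0.05 and a log2 fold change of 0.5 or more in either direction. No read totals were given, so no count model was used and depth is relative. The code was tested on simulated data.

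The members and gene lists were chosen with earlier results of these data known. Genes named were the 10 members, the called list genes (at most 4 per list after siKCNN4 and 3 per line in each other comparison), and the 5 genes most correlated with KCNN4. Some genes that this rule names are not reported here. RefSeq promoters were on GRCh38.p14, and the seed search used 1 transcript of each tested gene. Alternatives were a pseudocount of 0.1, no filter or a mean of 5 FPKM, a median of ratios scaling, a fit of only the groups compared, a replicate block, and each library left out. Same-numbered libraries did not deviate together across groups (Pearson r of deviations -0.05 to 0.16, median 0.01, 24 pairs, across genes).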

Additional observations from a re-analysis of the deposited data

Results flagged for a closer look

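The effect of an siRNA differed between PANC-1 and MiaPaCa2 for 16 pairs of member and siRNA at an adjusted p under 0.05 (limma, interaction term, PANC-1 effect minus MiaPaCa2 effect on the log2 scale, 3 libraries a group). Of these, 9 also reached an absolute difference of 0.5.

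After siKCNN4 the differences were 2.36 for TRPM8, 1.62 for ITPR1, 0.70 for STIM2, 0.44 for KCNN4 and 0.34 for ITPR3. TRPM8 was below 0.5 FPKM in all 6 MiaPaCa2 libraries of the comparison and passed the filter through PANC-1 alone, so its differences are descriptions, ITPR1 fell in MiaPaCa2 and rose in PANC-1, and ITPR3 rose in both lines. The silencing of KCNN4 left 47.5% of the siControl mean in PANC-1 and 36.5% in MiaPaCa2.

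After siS100A16 the differences were 0.97 for ITPR1, 0.56 for STIM1 and 0.32 for ITPR3. After siMYEOV they were 0.66 for ITPR3, 0.57 for TRPM8, -0.33 for ORAI1 and -0.25 for ITPR2. After siDDX60L they were -0.72 for ORAI2, 0.64 for STIM2, 0.38 for TRPM8 (0.93 with a pseudocount of 0.1) and 0.37 for ITPR2. MYEOV itself was at 23.9 FPKM under siControl in PANC-1 and 0.803 FPKM in MiaPaCa2. Causes of these differences were not tested.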

How the results depend on the processing

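Of the 24 called member effects of an siRNA, 5 lost the call under at least 1 setting that tested the gene. So did 2 of the 9 called differences between the lines and 0 of the 6 called differences between the lines under siControl. A gene removed by a filter was not counted as losing its call. Counts of called members moved by over 1.5 times in the cases below. With the filter at a mean of 5 FPKM, which removes TRPM8, ITPR1 and ITPR2 from some fits, siMYEOV kept 1 call in PANC-1 and 1 line difference. With a pseudocount of 0.1 siS100A16 had 4 line differences, and with the median of ratios scaling 1. With only the groups compared in the fit, siDDX60L had 1 line difference. Leaving out 1 library gave 0 to 1 calls for siDDX60L in MiaPaCa2 (ORAI3 at -0.53 without siDDX60L replicate 2), 1 to 2 for siMYEOV in PANC-1, 2 to 4 line differences for siS100A16 (4 without MiaPaCa2 siS100A16 replicate 2) and 1 to 3 for siDDX60L.

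Direction reversed for uncalled values alone. ORAI3 between the lines under siControl ranged from -0.052 to 0.049 with 1 library left out, and STIM2 after siKCNN4 in MiaPaCa2 ranged from -0.23 to 0.12 with 1 library left out. The labels do not say whether libraries with the same replicate number were handled together. The low correlations of their deviations cannot settle it, because a shared handling need not leave a visible trace, and the main fits used no pairing. With the replicate block, ORAI2 joined the siS100A16 line differences (3 called against 2 without it). Depth and the pseudocount limit low genes most: TRPM8 in MiaPaCa2 lay under the filter of 1 FPKM.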
